A study of Mus musculus with 6 samples.

Results

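The genes followed here set up and maintain the epithelium of the intestinal crypt and villus: the stem cell genes Lgr5, Ascl2 and Olfm4, the Wnt target Axin2, and the transcription factor genes Sox9, Klf4, Klf5, Cdx1, Cdx2 and Atoh1. They were chosen by name, and every probe set annotated to one of them alone was read. Of the 10 genes, 9 had such a probe set, 16 probe sets in all, out of 12393 genes and 20380 probe sets with a single gene name. No probe set was annotated to Olfm4, which was not analysed here.

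Total RNA of whole ileum, the end of the small bowel, was measured on 6 one-colour Affymetrix arrays, in 3 groups of 2. All mice were wild-type males of mixed C57BL/6:129Sv strain, 8 to 10 months old, and all were gavaged daily and had abdominal surgery. BDL_GW4064 mice had the common bile duct tied and received GW4064, which activates the bile acid receptor FXR, at 100 mg/kg/day. Dosing ran for 2 days ahead of the operation and 5 days following it. BDL_Vehicle mice had the same ligation and the Tween80 and methylcellulose vehicle alone. Sham_Vehicle mice had the duct exposed but not tied, and vehicle. The labels do not say that arrays within a group are from different animals. P-values therefore reflect the spread among these samples alone, and that spread may be technical. GW4064 in sham-operated mice was not analysed here.

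Intestinal epithelium renews itself from stem cells at the base of the crypts, which are kept dividing by Wnt signals. Lgr5, a receptor for R-spondins that strengthens Wnt signalling, marks these cells, and Ascl2 is a bHLH factor that Wnt switches on in them. As cells leave the crypt, Notch signalling and Atoh1 divide them between absorptive and secretory fates, while the homeobox factors Cdx1 and Cdx2 hold intestinal identity. Klf5 is known from dividing crypt cells and Klf4 from differentiated cells of the upper crypt and villus, goblet cells included.

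Promoter sequence is shown for Cdx2 and Klf4, 2 of the 3 genes with the lowest p-values of the set when GW4064 was compared with vehicle. The windows are the 250 bases before the RefSeq start site on the gene's own strand (assembly GRCm38.p6), printed 5′ to 3′. Capitals mark the E-box letters CAGCTG, which bHLH factors such as Atoh1 and Ascl2 can bind.
Cdx2, chr5:147307250-147307499, minus strand: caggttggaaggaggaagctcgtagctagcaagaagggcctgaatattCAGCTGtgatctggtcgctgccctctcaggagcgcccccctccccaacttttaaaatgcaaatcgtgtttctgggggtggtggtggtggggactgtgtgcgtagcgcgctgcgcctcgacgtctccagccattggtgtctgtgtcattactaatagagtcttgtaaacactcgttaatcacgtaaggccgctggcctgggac
Klf4, chr4:55532476-55532725, minus strand: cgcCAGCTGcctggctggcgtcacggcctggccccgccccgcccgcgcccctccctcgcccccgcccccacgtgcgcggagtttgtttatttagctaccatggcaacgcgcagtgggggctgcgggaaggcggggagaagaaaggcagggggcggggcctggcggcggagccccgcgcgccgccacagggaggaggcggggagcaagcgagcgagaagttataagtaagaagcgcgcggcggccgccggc

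Guanine and cytosine made up 55.2% of the Cdx2 window and 74.0% of the Klf4 window, against a median of 52.4% over all 32851 promoter windows of the RefSeq table. CAGCTG, whose reverse complement is the same letters, began 202 bases before the Cdx2 start and 247 bases before the Klf4 start. It occurred in 13% of all windows. The letters CTTTGAT of TCF/LEF factors, CCCCACCC of KLF factors and CAATAAA of CDX factors were searched on both strands as well, and occurred in 3.2%, 9.1% and 4.2% of all windows. None of these 3 was found in either window. Of the other genes with a window in the table, Ascl2 and Olfm4 held CCCCACCC and Atoh1 held CTTTGAT, each at 1 place, and Axin2 held none of the 4 motifs. A match of letters is a description of the sequence, not of binding.

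The values are MAS5 signals, which summarise each probe set's paired probes on a linear scale, already scaled to a common trimmed mean of 200.1 on every array. The ileal bile acid gene Fabp6 read 6691.3 and 6412.2 in BDL_GW4064, 2620.5 and 3109.5 in BDL_Vehicle and 6480.3 and 6650.7 in Sham_Vehicle. It thus differed by group (limma adjusted p = 0.0194 for ligation against sham and 0.0119 for GW4064 against vehicle). Slc10a2, also an ileal bile acid gene, read 118.0 to 595.6 over the 6 arrays, and the colon markers Car1 and Aqp8 read at most 29.0. The array labelled Sham_Vehicle replicate 2 had an actin 3′ to 5′ ratio of 1.73, against 1.09 to 1.22 on the other arrays. Signals of the 18S rRNA 5′ control split the arrays, at 8.6 to 13.3 for both BDL_GW4064 arrays and BDL_Vehicle replicate 2, and at 67.3 to 88.7 for BDL_Vehicle replicate 1 and both Sham_Vehicle arrays. These are called the low and the high array set. Group differences are also given with the set as a term. The difference between BDL_GW4064 and BDL_Vehicle then rests on BDL_Vehicle replicate 2, that between BDL_Vehicle and Sham_Vehicle on BDL_Vehicle replicate 1, and that between BDL_GW4064 and Sham_Vehicle on both. In 5 of the 14 tested probe sets described below, every high-set array was above every low-set array, against 16.5% of all tested probe sets, and in 0 the reverse held, against 11.2%. Because only BDL_Vehicle fell in both, the array set and the group cannot be told apart for BDL_GW4064 against Sham_Vehicle except through those 2 arrays.

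Of the 16 probe sets, 14 lay above the filter on low signal (a mean near 37.1) and were tested, and they covered all 9 genes. The 2 below it were both for Ascl2. None of the 14 passed limma's adjusted p threshold of 0.05 in any comparison. Among all 13575 tested probe sets, 0.0295% passed for BDL_Vehicle against Sham_Vehicle, 0.0516% for BDL_GW4064 against BDL_Vehicle and 0.0368% for BDL_GW4064 against Sham_Vehicle. Fold changes below are on the log2(signal + 4) scale, which understates the change of dim probe sets.

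**Figure D1:**
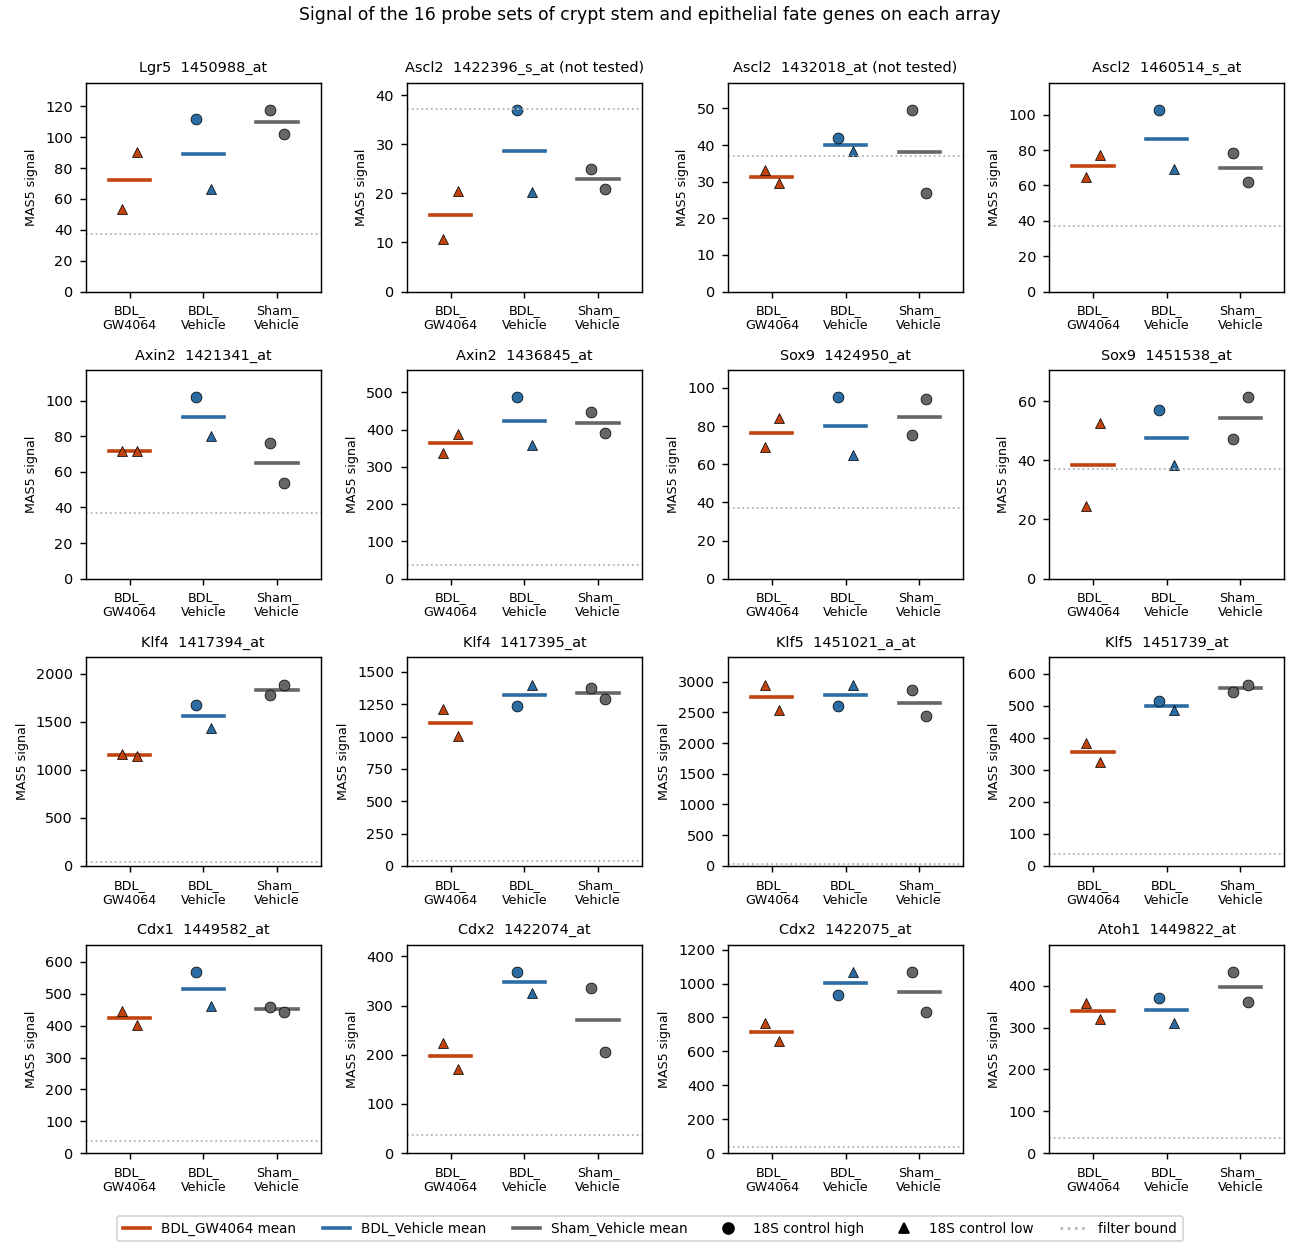
MAS5 signal (linear, from 0) of each of the 16 probe sets on each array; points are arrays, bars are group means, circles and triangles are the high and low 18S array sets, and the dotted line is the filter bound of 37.1. On both Cdx2 probe sets the BDL_GW4064 arrays lie below the BDL_Vehicle arrays, while the brighter Klf5 probe set spans 2436.9 to 2950.5 with the groups mixed.

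GW4064 against vehicle in ligated mice was the comparison in which the genes lay furthest to one side. All 14 tested probe sets had lower estimates with GW4064, where 52.1% of all tested probe sets did (63.8% with median centring of the arrays, under which all 14 were also lower), although Atoh1 stood at 0.00. In 7 of the 14 both BDL_GW4064 arrays lay below both BDL_Vehicle arrays, against 18.1% of all tested probe sets (35.5% in either direction), and in 0 they lay above, against 17.4%. At an unadjusted p under 0.05 there were 4, all lower, against a background of 3.06% lower and 7.48% in either direction. These 4 belonged to Cdx2, Klf4 and Klf5. With each gene represented by its brightest probe set, all 9 genes had lower estimates with a median log2 fold change of -0.24, beside -0.01 over all tested probe sets. The number of probe sets with lower estimates was 9 of 14 once the array set was a term. Leaving out BDL_Vehicle replicate 1 gives those same estimates, so it is not a second check. Estimates for Cdx2, Klf4 and Klf5 without BDL_GW4064 replicate 2 are given below.

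Cdx2, the homeobox factor that holds intestinal identity, had the largest estimated difference of the set in this comparison. Its probe set 1422074_at read 224.2 and 170.8 in BDL_GW4064, 368.6 and 325.5 in BDL_Vehicle and 335.7 and 205.8 in Sham_Vehicle. Probe set 1422075_at read 768.7 and 663.5 in BDL_GW4064, 934.1 and 1067.0 in BDL_Vehicle and 1069.5 and 833.7 in Sham_Vehicle. Both BDL_GW4064 arrays were thus below both BDL_Vehicle arrays on either probe set, and on 1422075_at they were also below both Sham_Vehicle arrays.

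Against BDL_Vehicle, Cdx2 was 1.75-fold lower in BDL_GW4064 on 1422074_at (log2 fold change -0.81 ± 0.25, SE; limma adjusted p = 0.449). On 1422075_at it was 1.40-fold lower (-0.48 ± 0.16; limma adjusted p = 0.523). The log2 fold changes were -0.72 and -0.58 once the array set was a term, and -0.62 and -0.38 without BDL_GW4064 replicate 2. Against Sham_Vehicle the Cdx2 differences of BDL_GW4064 were -0.42 ± 0.25 and -0.40 ± 0.16 (SE; limma adjusted p = 0.443 and 0.291). Ligation alone gave 0.39 ± 0.25 and 0.08 ± 0.16 for BDL_Vehicle against Sham_Vehicle, where the arrays overlapped on both probe sets. On 1422074_at, leaving out 1 Sham_Vehicle array moved these values most. They stood at -0.07 against Sham_Vehicle and 0.74 for ligation without replicate 1, and at -0.77 and 0.04 without replicate 2. On 1422075_at the value against Sham_Vehicle was -0.22 without replicate 1 and -0.58 without replicate 2.

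Cdx1, the related homeobox factor, was measured by 1 probe set. It read 447.0 and 402.8 in BDL_GW4064, 569.1 and 463.0 in BDL_Vehicle and 457.9 and 443.9 in Sham_Vehicle. The BDL_Vehicle arrays were the highest 2 of the 6, with 463.0 close to the Sham_Vehicle value of 457.9. GW4064 against vehicle gave a log2 fold change of -0.27 ± 0.15 (SE; limma adjusted p = 0.787), with a 95% interval of -0.63 to 0.08, and ligation against sham 0.19 ± 0.15 (limma adjusted p = 0.831). Leaving out either BDL_Vehicle array moved both values. Without BDL_Vehicle replicate 1, Cdx1 stood at -0.12 for GW4064, the value also found once the array set was a term, and at 0.04 for ligation. Without BDL_Vehicle replicate 2 it stood at -0.42 and 0.33.

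Klf4, a zinc finger factor of differentiated epithelium that is also expressed in endothelium and smooth muscle, had 2 bright probe sets. On 1417394_at it read 1162.5 and 1146.2 in BDL_GW4064, 1678.2 and 1438.7 in BDL_Vehicle and 1783.6 and 1887.3 in Sham_Vehicle. The 3 groups did not overlap on this probe set, with BDL_GW4064 lowest and Sham_Vehicle highest. Every high-set array was also above every low-set array there. On 1417395_at the signals were 1210.4 and 1003.8 in BDL_GW4064, 1235.2 and 1401.7 in BDL_Vehicle and 1378.6 and 1290.0 in Sham_Vehicle. Here BDL_GW4064 was again lowest, while the BDL_Vehicle and Sham_Vehicle arrays overlapped.

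GW4064 against vehicle gave Klf4 log2 fold changes of -0.43 ± 0.12 on 1417394_at (SE; limma adjusted p = 0.405) and -0.25 ± 0.14 on 1417395_at (adjusted p = 0.772). BDL_GW4064 against Sham_Vehicle gave -0.67 ± 0.12 on 1417394_at, 1.59-fold lower, which ranked 52 by p among all tested probe sets (limma adjusted p = 0.153). On 1417395_at that difference was -0.27 ± 0.14 (adjusted p = 0.372). Including the array set as a term the 1417394_at value against Sham_Vehicle was -0.45 and that against BDL_Vehicle was -0.32. Ligation against sham gave -0.24 ± 0.12 and -0.02 ± 0.14 (adjusted p = 0.751 and 0.983).

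Klf5, the Krüppel-like factor of dividing crypt cells, gave different values on its 2 probe sets. On 1451739_at it read 384.4 and 323.7 in BDL_GW4064, 513.9 and 486.0 in BDL_Vehicle and 542.0 and 565.5 in Sham_Vehicle, so that the 3 groups did not overlap. On 1451021_a_at, the brighter one, it read 2946.9 and 2541.5 in BDL_GW4064, 2610.8 and 2950.5 in BDL_Vehicle and 2863.9 and 2436.9 in Sham_Vehicle, with all groups mixed. Relative to BDL_Vehicle, BDL_GW4064 was 1.41-fold lower on 1451739_at (log2 fold change -0.50 ± 0.14, SE; limma adjusted p = 0.421). The difference on 1451021_a_at was -0.02 ± 0.13, with a 95% interval of -0.32 to 0.28. Relative to Sham_Vehicle the values were -0.64 ± 0.14 (limma adjusted p = 0.176) and 0.05 ± 0.13. On 1451739_at every high-set array was also above every low-set array. Including the array set as a term, 1451739_at stood at -0.46 against BDL_Vehicle and -0.56 against Sham_Vehicle. The difference between the 2 probe sets was not tested, and which Klf5 transcripts each one reads was not analysed here.

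**Figure D2:**
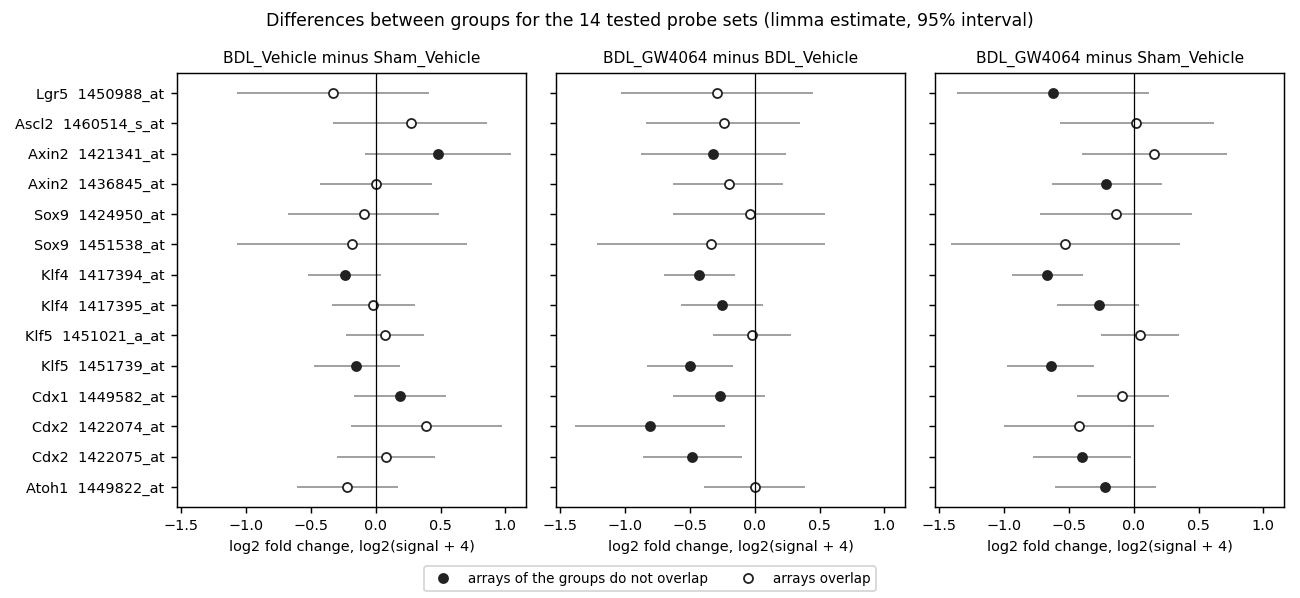
Log2 fold change of the 14 tested probe sets in the 3 comparisons, with 95% intervals from limma; filled points are probe sets whose arrays do not overlap between the groups. In BDL_GW4064 minus BDL_Vehicle the points lie at or below 0, lowest for Cdx2 1422074_at at -0.81, and the intervals of both Cdx2 probe sets, Klf4 1417394_at and Klf5 1451739_at lie below 0 before adjustment for 13575 tests.

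Lgr5, the receptor that marks crypt base stem cells, read 53.6 and 90.7 in BDL_GW4064, 111.8 and 66.6 in BDL_Vehicle and 117.5 and 102.4 in Sham_Vehicle. The Sham_Vehicle arrays were above both BDL_GW4064 arrays, and the BDL_Vehicle arrays were spread widely. The log2 fold change was -0.29 ± 0.32 for GW4064 against vehicle, -0.62 ± 0.32 for BDL_GW4064 against Sham_Vehicle and -0.33 ± 0.32 for ligation against sham (SE; limma adjusted p = 0.924, 0.378 and 0.846). The arrays of the high set (102.4 to 117.5) lay above those of the low set (53.6 to 90.7). With the set as a term the 3 values were 0.07, 0.09 and 0.03. The set's part in these differences was not tested beyond that.

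Ascl2, the stem cell bHLH factor, was dim. Its tested probe set 1460514_s_at read 64.5 and 77.4 in BDL_GW4064, 102.5 and 69.5 in BDL_Vehicle and 78.2 and 61.7 in Sham_Vehicle, with overlap in every pair of groups. The log2 fold change was -0.24 ± 0.26 for GW4064 against vehicle and 0.27 ± 0.26 for ligation against sham (SE; limma adjusted p = 0.919 and 0.845). BDL_GW4064 against Sham_Vehicle gave 0.02 ± 0.26 (limma adjusted p = 0.977). Including the array set as a term, the values were 0.02 for GW4064, 0.54 for ligation and 0.56 for BDL_GW4064 against Sham_Vehicle. Probe set 1422396_s_at read 10.6 to 36.9 over the 6 arrays, below 37.1 throughout, and 1432018_at read 26.8 to 49.5 with 3 arrays below it. Neither was tested, and no fold is given for them.

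Axin2, a negative regulator of Wnt signalling that Wnt itself switches on, had a dim and a brighter probe set. The brighter, 1436845_at, read 337.1 and 388.5 in BDL_GW4064, 486.1 and 358.2 in BDL_Vehicle and 446.6 and 391.0 in Sham_Vehicle. The dim one, 1421341_at, read 71.7 and 71.8 in BDL_GW4064, 101.7 and 80.3 in BDL_Vehicle and 76.1 and 53.5 in Sham_Vehicle. On 1421341_at the BDL_Vehicle arrays were above all others, and on 1436845_at they spanned the Sham_Vehicle arrays.

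Ligation against sham gave Axin2 0.48 ± 0.24 on 1421341_at and 0.00 ± 0.18 on 1436845_at (SE; limma adjusted p = 0.751 and 0.998). GW4064 against vehicle gave -0.32 ± 0.24 and -0.20 ± 0.18 (adjusted p = 0.852 and 0.89). Including the array set as a term, ligation stood at 0.64 and 0.22, and GW4064 at -0.15 and 0.01.

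Within each group, the tested probe sets of Lgr5, Ascl2 and Axin2 were higher on the same array. Sham_Vehicle replicate 1, BDL_Vehicle replicate 1 and BDL_GW4064 replicate 2 were the higher arrays of their groups for Lgr5, for 2 of the 3 Ascl2 probe sets and for both Axin2 probe sets, where BDL_GW4064 differed by 71.8 against 71.7 on 1421341_at. This order, picked after the values were seen, held in 17.3% of all tested probe sets. The summed signal of 3 Paneth cell genes, Lyz1, Mmp7 and Itln1, ran the same way, although Lyz1 alone was higher on BDL_GW4064 replicate 1 (5474) than on replicate 2 (5276). The sums were 10490 and 11450 in BDL_GW4064 replicates 1 and 2, 11810 and 9685 in BDL_Vehicle and 11500 and 9380 in Sham_Vehicle. So did the sum of 11 proliferation genes, with 3694 and 4736 in BDL_GW4064, 4919 and 4144 in BDL_Vehicle and 3951 and 3359 in Sham_Vehicle. Among them Mcm2, Mcm6 and the dim, untested Tyms were higher on replicate 2 in Sham_Vehicle. Mcm6 was also higher on replicate 2 in BDL_Vehicle (305.4 against 300.8). The proliferation genes differed between groups too. Of 10 tested, 9 were higher and 1 lower for ligation against sham (median log2 fold change 0.33, beside -0.01 for all tested probe sets). In 7 both BDL_Vehicle arrays lay above both Sham_Vehicle arrays, against 18.2% of all tested probe sets, and 0 passed the adjusted threshold. Including the array set as a term, 10 were higher (median 0.44). The part of Paneth and proliferating cells in the signals of Lgr5, Ascl2 and Axin2 was not tested. In whole tissue, fewer cells of a type and less RNA per cell cannot be told apart.

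Sox9, a crypt transcription factor also needed for Paneth cells, did not follow that order. Probe set 1424950_at read 69.0 and 84.1 in BDL_GW4064, 95 and 65.0 in BDL_Vehicle and 75.2 and 94.0 in Sham_Vehicle. Probe set 1451538_at read 24.4 and 52.6 in BDL_GW4064, 57.0 and 38.3 in BDL_Vehicle and 47.1 and 61.2 in Sham_Vehicle. The groups overlapped on both in all 3 comparisons. GW4064 against vehicle gave -0.04 ± 0.25 and -0.34 ± 0.38, and ligation against sham -0.09 ± 0.25 and -0.18 ± 0.38 (SE; limma adjusted p from 0.926 to 0.991). The 95% interval for GW4064 on 1424950_at ran from -0.63 to 0.54, an interval that leaves differences of that size unresolved.

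Atoh1, the bHLH factor that commits cells to secretory fates, read 359.4 and 320.1 in BDL_GW4064, 371.4 and 310.1 in BDL_Vehicle and 433.1 and 361.4 in Sham_Vehicle. The 2 ligated groups had means of 339.8 ± 27.8 in BDL_GW4064 and 340.8 ± 43.3 in BDL_Vehicle (SD, n = 2 arrays each), and Sham_Vehicle had 397.2 ± 50.7. GW4064 against vehicle gave 0.00 ± 0.17 (SE, 95% interval -0.39 to 0.39), and ligation against sham -0.22 ± 0.17 (limma adjusted p = 0.818). Among markers of secretory cells, which need Atoh1, the 5 goblet genes summed to 21060 to 23920 in BDL_GW4064, 21460 to 22100 in BDL_Vehicle and 21360 to 24220 in Sham_Vehicle. The 7 enteroendocrine genes summed to 2617 to 3152 in BDL_GW4064, 2848 to 3509 in BDL_Vehicle and 3665 to 4282 in Sham_Vehicle. For Atoh1 and for the enteroendocrine sums, every high-set array was above every low-set array. Atoh1 stood at 361.4 to 433.1 in the high set and 310.1 to 359.4 in the low set. The goblet sums and the Paneth sums given above did not split in this way. Including the array set as a term, Atoh1 stood at 0.13 for GW4064 and -0.09 for ligation.

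Ligation against sham gave 8 of the 14 probe sets lower, where 51.7% of all tested probe sets were (6 of 14 and 42.9% with median centring). In 4 the arrays did not overlap, 2 higher (Axin2 1421341_at and Cdx1) and 2 lower (Klf4 1417394_at and Klf5 1451739_at). Among all tested probe sets 36.9% did not overlap, 18.2% higher and 18.7% lower. None reached an unadjusted p of 0.05, against 6.37%. Without Sham_Vehicle replicate 1, 2 probe sets did, and 1 did without BDL_Vehicle replicate 1, with quantile normalisation or with median centring.

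BDL_GW4064 against Sham_Vehicle gave 11 of 14 lower (49.8% of all tested), 7 of them without overlap (26.3% lower and 50.1% in either direction among all tested), and 0 higher without overlap (23.8%). At an unadjusted p under 0.05 there were 3, Klf4 1417394_at, Klf5 1451739_at and Cdx2 1422075_at, against 8.67% lower and 16% in either direction. Including the array set as a term, 6 of 14 were lower and 1 was under the unadjusted 0.05. This comparison shares its arrays with both others, so its values are not further support for them.

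The epithelium markers Epcam, Cdh1, Krt8, Krt18, Krt19, Krt20, Cldn3 and Cldn7, none with a signal of 0, summed to 27120 to 30370 in BDL_GW4064, 28310 to 30300 in BDL_Vehicle and 27780 to 29760 in Sham_Vehicle. With GW4064 against vehicle, 3 of the 8 were higher and 5 lower (median log2 fold change -0.02), although Krt20 and Cldn7 stood at 0.00. Including the array set as a term, 1 was higher and 7 were lower (median -0.06). Cdh1 read 1493.3 and 1484.6 in BDL_GW4064, 2166.2 and 1537.9 in BDL_Vehicle and 1991.7 and 2350.9 in Sham_Vehicle. It gave -0.29 ± 0.17 against BDL_Vehicle and -0.54 ± 0.17 against Sham_Vehicle (SE; limma adjusted p = 0.795 and 0.227). Cdh1 also split by array set, and both values were -0.05 once the set was a term. Centred on all 8 markers, GW4064 against vehicle stood at -0.78 and -0.45 for Cdx2. It stood at -0.40 for Klf4 1417394_at and -0.47 for Klf5 1451739_at. Centring moves every probe set by the same amount within a comparison. The closeness of these values to those given above is therefore not a separate check for each gene. Fibroblast, endothelial, macrophage and smooth muscle markers gave higher signals with GW4064, though 0 of them passed the adjusted threshold. The 1 tested enteric glia marker, Sox10, gave -0.30 ± 0.28. The 8 fibroblast genes, all higher and none at 0, summed to 2901 to 3822 in BDL_GW4064 against 990.4 to 1378 in BDL_Vehicle. The 6 endothelial genes summed to 491.0 to 525.6 in BDL_GW4064 against 272.1 to 290.0 in BDL_Vehicle. The 6 macrophage genes summed to 1524 to 1586 in BDL_GW4064 against 921.0 to 1128 in BDL_Vehicle. The 7 smooth muscle genes summed to 901.2 and 10210 on BDL_GW4064 replicates 1 and 2, against 531.4 and 745.7 in BDL_Vehicle. The part of these cell types in the Cdx2, Klf4 and Klf5 differences was not tested. Without BDL_GW4064 replicate 2, Klf4 1417394_at stood at -0.42 and Klf5 1451739_at at -0.38.

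**Figure D3:**
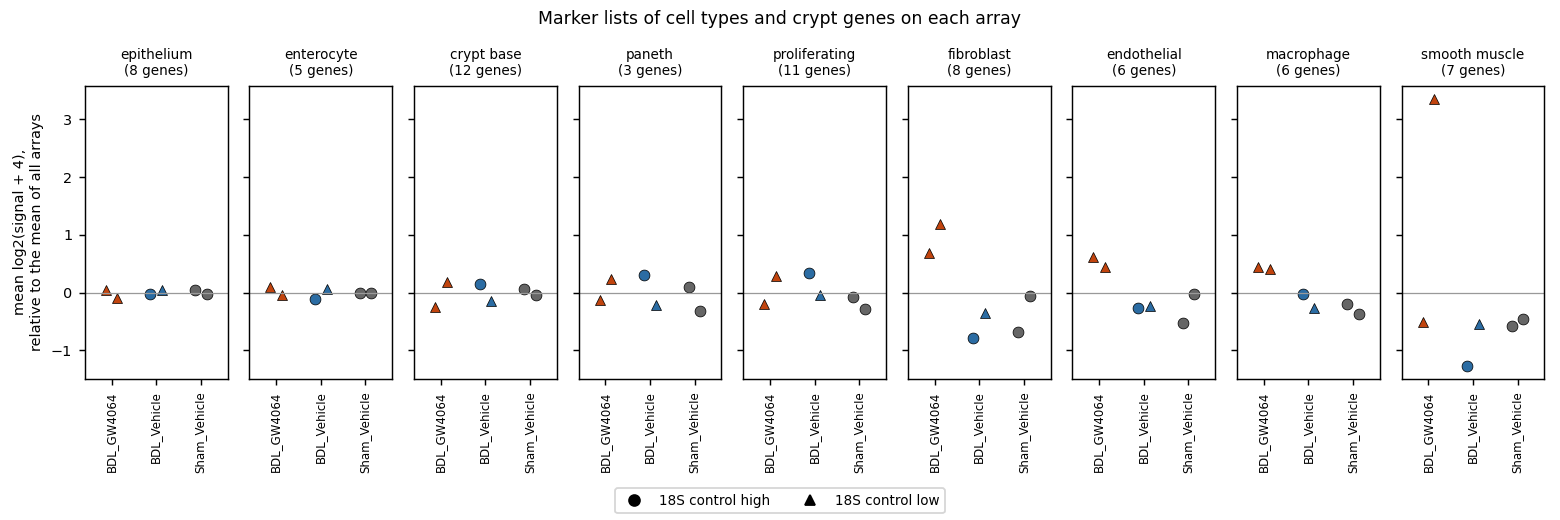
Mean log2(signal + 4) of each marker list on each array, relative to the mean over all 6 arrays; circles and triangles are the high and low 18S array sets. Epithelium and enterocyte lists vary little, crypt base, Paneth and proliferation lists differ between the arrays of each group, and fibroblast, endothelial and macrophage lists are highest on both BDL_GW4064 arrays, with smooth muscle at 3.35 on BDL_GW4064 replicate 2.

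Other genes of the same pathways were read from lists chosen by function, 1 probe set a gene, and 0 of their tested genes passed the adjusted threshold in any of the 3 comparisons. Of 14 listed crypt base genes 10 were tested, and GW4064 against vehicle gave 5 higher and 5 lower, with a median log2 fold change of 0.01. The 4 of lowest p in any comparison were Cd44, Prom1, Lrig1 and Slc12a2. Prom1, which marks crypt progenitors, read 390.2 and 399.8 in BDL_GW4064, 587.6 and 411.3 in BDL_Vehicle and 534.3 and 406.0 in Sham_Vehicle. Cd44, a Wnt target and hyaluronan receptor, read 139.7 and 156.3 in BDL_GW4064, 131.0 and 113.8 in BDL_Vehicle and 137.4 and 104.8 in Sham_Vehicle. GW4064 against vehicle gave -0.31 ± 0.21 for Prom1 and 0.27 ± 0.20 for Cd44 (SE; limma adjusted p = 0.828 and 0.846). The estimates of these crypt base genes thus lay on either side of 0, with neither passing the adjusted threshold.

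Of 22 Wnt pathway genes 14 were tested, 5 higher and 9 lower with GW4064 (median -0.14, beside -0.01 for all tested probe sets). Tcf7l2, the main Wnt effector of the intestinal epithelium, read 135.1 and 236.4 in BDL_GW4064, 332.7 and 279.8 in BDL_Vehicle and 309.6 and 362.6 in Sham_Vehicle. Its log2 fold change was -0.76 ± 0.26 against BDL_Vehicle (SE; limma adjusted p = 0.526) and -0.89 ± 0.26 against Sham_Vehicle (adjusted p = 0.203). The Wnt co-receptor gene Lrp6 gave -0.42 ± 0.18 and -0.74 ± 0.18 in the same comparisons (adjusted p = 0.672 and 0.181). Tcf7l2 and Lrp6 were both higher on every high-set array than on any low-set array. Once the array set was a term, Tcf7l2 stood at -0.63 and -0.64, and Lrp6 at -0.21 and -0.31. Sfrp1, a secreted Wnt antagonist made in the mesenchyme, read 72.2 and 69.2 in BDL_GW4064, 28.6 and 40.8 in BDL_Vehicle and 64.7 and 45.4 in Sham_Vehicle. It gave 0.97 ± 0.28 for GW4064 against vehicle and -0.61 ± 0.28 for ligation against sham (limma adjusted p = 0.421 and 0.751). The secreted glycoprotein gene Dkk3 gave 0.69 ± 0.25 (adjusted p = 0.558).

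Of 16 genes of Notch signalling and secretory fate 12 were tested, 3 higher and 9 lower with GW4064 (median -0.18, beside -0.01 for all tested probe sets). The list moved with the array set: its mean log2 level was 0.18 above its average on each high-set array, and stood at -0.26 and -0.13 on the BDL_GW4064 arrays and -0.13 on BDL_Vehicle replicate 2. Of the 12 genes, 6 were higher on every high-set array than on any low-set array, and once the set was a term 7 were higher and 5 lower with GW4064 (median 0.03). Jag1, a Notch ligand, read 21.5 and 29.5 in BDL_GW4064, 65.2 and 44.2 in BDL_Vehicle and 73.4 and 68.5 in Sham_Vehicle. Because both BDL_GW4064 arrays were below 37.1, Jag1 was at least 1.41-fold lower than in BDL_Vehicle and at least 1.82-fold lower than in Sham_Vehicle (limma adjusted p = 0.426 and 0.176). The bound sets the dim arrays to 37.1 and keeps the pseudocount, and it does not include the spread between arrays. The Jag1 signals also split by array set, with 65.2 to 73.4 in the high set and 21.5 to 44.2 in the low set. Without the bound, and with the set as a term, Jag1 stood at -0.72 against BDL_Vehicle and -0.84 against Sham_Vehicle. Dll1, a Notch ligand of secretory progenitors that Atoh1 induces, gave -0.34 ± 0.22 against BDL_Vehicle and -0.57 ± 0.22 against Sham_Vehicle (SE; limma adjusted p = 0.828 and 0.279). Neurod1 gave -0.21 ± 0.31 and Foxa1 -0.23 ± 0.18 against BDL_Vehicle. These 3 genes split by array set as well, and including it as a term the values against BDL_Vehicle were -0.09 for Dll1, 0.11 for Neurod1 and -0.12 for Foxa1.

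Of 13 enterocyte factor genes 10 were tested, 6 higher and 4 lower with GW4064 (median 0.07). Gata6 read 344.9 and 320.2 in BDL_GW4064, 439.1 and 397.8 in BDL_Vehicle and 485.6 and 544.2 in Sham_Vehicle. As for Klf4 1417394_at, this order of the groups is also a split by array set, and including the set as a term Gata6 stood at -0.26 against BDL_Vehicle and -0.48 against Sham_Vehicle. Gata5 read 356.8 and 327.7 in BDL_GW4064, 253.0 and 236.5 in BDL_Vehicle and 347.1 and 385.4 in Sham_Vehicle, lowest in BDL_Vehicle. Against BDL_Vehicle the log2 fold changes were -0.33 ± 0.14 for Gata6 and 0.48 ± 0.15 for Gata5 (SE; limma adjusted p = 0.671 and 0.443). Gata4 gave 0.13 ± 0.19, with every low-set array above every high-set array (0.01 once the set was a term), and Elf3 gave 0.09 ± 0.19.

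Of 12 other Krüppel-like factor genes 8 were tested, 4 higher and 4 lower with GW4064 (median -0.03). Klf2, an endothelial factor, gave 0.54 ± 0.24, Klf16 -0.53 ± 0.24, Klf10 -0.24 ± 0.17 and Klf13 0.05 ± 0.15 (SE; limma adjusted p from 0.69 to 0.979). Klf16 and Klf13 split by array set, and stood at -0.39 and 0.18 once it was a term. Of 8 genes known as Cdx2 targets 7 were tested, 3 higher and 4 lower (median -0.18). Heph, the iron oxidase hephaestin, read 1125.8 and 927.6 in BDL_GW4064, 1536.7 and 1278.2 in BDL_Vehicle and 1565.5 and 1683.7 in Sham_Vehicle (-0.45 ± 0.15 against BDL_Vehicle, adjusted p = 0.482). Heph was higher on every high-set array than on any low-set array, and stood at -0.32 once the set was a term. The villus actin-bundling gene Vil1 gave -0.19 ± 0.09, the lactase gene Lct -0.18 ± 0.18 and the metalloprotease gene Mep1a 0.24 ± 0.11 (SE; limma adjusted p = 0.749, 0.918 and 0.677). These targets did not all lie on the side of Cdx2.

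Likeness of profile was measured as the root mean square difference between log2 signals, each centred on its own mean over the 6 arrays, among 7918 other genes. The 3 genes nearest to Lgr5 were Tex10 (0.069), Bcl9 (0.083) and Mansc1 (0.102), where Lgr5 itself ranged over 1.08 log2 units. The nearest to Klf4 was Tcea3 (0.035), to Cdx2 Synrg (0.077), to Cdx1 Ankib1 (0.041), to Atoh1 Slc29a3 (0.041), to Axin2 Nup160 (0.042), to Ascl2 Ccnh (0.050) and to Sox9 Smim11 (0.054). The nearest to Klf5, on its brighter probe set, was the epithelial keratin gene Krt19 (0.018). That Klf5 probe set ranged over only 0.28 log2 units, the smallest range of the set, which leaves little room for a difference. The other Klf5 probe set was not compared in this way. These are descriptions over 6 arrays.

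**Figure D4:**
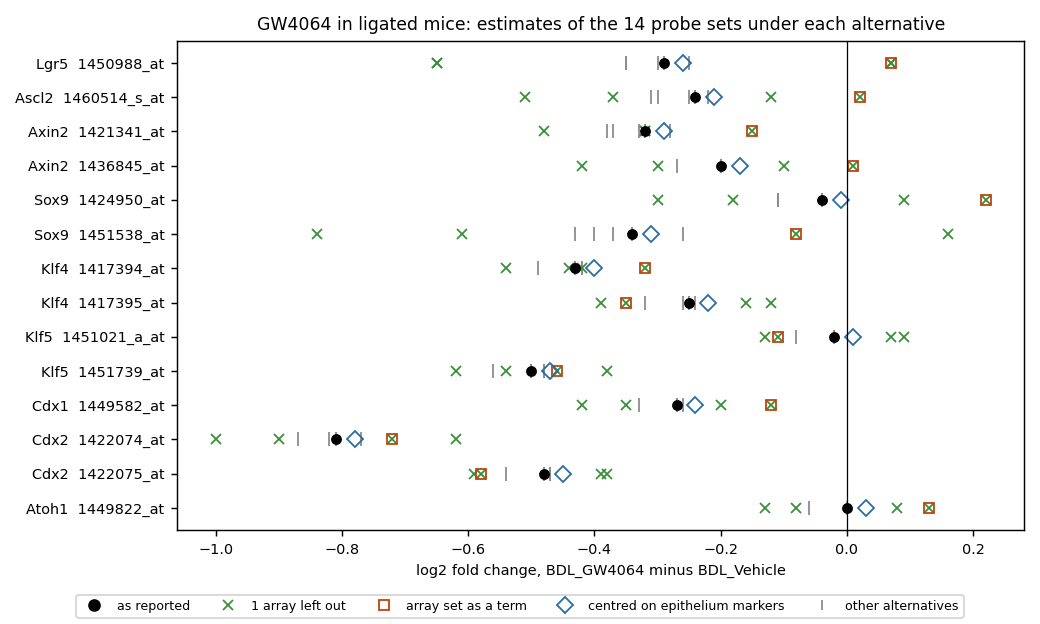
Log2 fold change of BDL_GW4064 minus BDL_Vehicle for the 14 tested probe sets as reported (black) and under each alternative, including 1 array left out, the array set as a term and centring on epithelium markers. Both Cdx2 and both Klf4 probe sets, Klf5 1451739_at, Cdx1 and Axin2 1421341_at stay below 0 in all of these, and the other 7 cross 0 in at least 1.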

How the data were processed

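Ileum RNA from 6 samples (5 µg each, per the labels' protocols) was hybridised to 1 array each. Groups came from the sample titles. The deposited intensity values are named MAS5 signals in the submitters' processing notes, with no version named in the sources used here. Which labelling batch held which sample was not analysed here. Gene names came from the platform annotation, and sequences and names from RefSeq. From the intensities, log2(signal + 4) was computed, the 64 control probe sets and the lowest 40% by mean were left out, and 13575 probe sets were fitted with limma 3.58.1 (R 4.3.3), fitting 3 group means over all 6 arrays with a signal-dependent variance prior. P-values were adjusted by the Benjamini-Hochberg method over all 13575. The fit was tested on simulated data. The array set was also fitted as a term, for the list genes as an alternative chosen after seeing the data. Having 2 arrays per group limits the precision. The genes and lists were chosen with earlier results of these data known. Named list genes were the 4 of lowest p in any comparison. Marker lists not printed with values were measured but no result turned on them.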

Additional observations from a re-analysis of the deposited data

How the results depend on the processing

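In 19 alternatives 0 of the members' 14 probe sets passed the adjusted threshold in any comparison, and their lowest adjusted p was 0.0986 (Klf4 1417394_at, BDL_GW4064 against Sham_Vehicle). Of 233 recomputed fold changes a comparison, the sign turned in 20 for ligation, 19 for GW4064 and 14 for BDL_GW4064 against Sham_Vehicle, and the cause was not tested. Where an arm was left with 1 array, it was assumed to vary like the others. The same-numbered arrays' deviations correlated at 0.04, 0.09 and -0.12, so replicate numbers were not taken as pairs.

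Probe sets called among all tested were 4, 7 and 5 for ligation, GW4064 and BDL_GW4064 against Sham_Vehicle. They were 2, 4 and 0 with the replicate block, 1, 2 and 0 without the signal trend, 2 and 4 with no filter for ligation and GW4064, 3 with median centring for BDL_GW4064 against Sham_Vehicle, 12 with a robust prior for GW4064, and, given the array set as a term, 2 and 0 for GW4064 and BDL_GW4064 against Sham_Vehicle. With 1 array left out they ranged from 1 to 3 for ligation, from 2 to 48 for GW4064 and from 0 to 29 for BDL_GW4064 against Sham_Vehicle. Members' probe sets with lower values were 5 for ligation and 9 for GW4064 with the filter at 60%, which tests fewer, and 9 for GW4064 and 6 for BDL_GW4064 against Sham_Vehicle with the array set as a term. With 1 array left out they ranged from 6 to 9 for ligation, from 9 to 13 for GW4064 and from 11 to 13 for BDL_GW4064 against Sham_Vehicle.

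With the array set as a term, signs turned for GW4064 in Lgr5 (0.07), Ascl2 (0.02), Axin2 1436845_at (0.01), Sox9 1424950_at (0.22) and Atoh1 (0.13). For ligation they turned in Lgr5 (0.03), Axin2 1436845_at (0.22), Sox9 (0.17 and 0.08), Klf5 1451021_a_at (-0.02) and Cdx2 1422075_at (-0.02). For BDL_GW4064 against Sham_Vehicle they turned in Lgr5 (0.09), Axin2 1436845_at (0.23), Sox9 (0.39 and 0.00), Klf5 1451021_a_at (-0.13), Cdx1 (0.21) and Atoh1 (0.04). Centring on epithelium markers turned Klf5 1451021_a_at (0.01) and Atoh1 (0.03) for GW4064, quantile normalisation Atoh1 (0.00), and median centring Axin2 1436845_at (0.05) and Klf4 1417395_at (0.03) for ligation.

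Leaving out 1 array at a time, the values whose sign turned ranged as follows. For ligation, Axin2 1436845_at -0.22 to 0.22, Klf4 1417395_at -0.11 to 0.07, Sox9 1424950_at -0.35 to 0.17, Klf5 1451021_a_at -0.05 to 0.19, Cdx2 1422075_at -0.10 to 0.26, Lgr5 -0.69 to 0.03, Sox9 1451538_at -0.45 to 0.08. For GW4064, Lgr5 -0.65 to 0.07, Ascl2 -0.51 to 0.02, Axin2 1436845_at -0.42 to 0.01, Sox9 1424950_at -0.30 to 0.22, Atoh1 -0.13 to 0.13, Klf5 1451021_a_at -0.13 to 0.09, Sox9 1451538_at -0.84 to 0.16. For BDL_GW4064 against Sham_Vehicle, Ascl2 -0.14 to 0.18, Axin2 1421341_at -0.08 to 0.40, Sox9 1424950_at -0.29 to 0.02, Klf5 1451021_a_at -0.07 to 0.17.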
